A study of Mus musculus with 6 samples.

Results

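The genes described here were 42 genes of the lysosome, chosen by symbol from 55416 genes in the deposited table: 9 cysteine proteases, 4 aspartic and serine proteases, 11 glycosidases, 4 sulfatases, 6 lipid hydrolases and activator proteins, 5 membrane proteins and 3 transcription factors of the MiT-TFE family. The rule was their function, and the choice was made with earlier results of these data known. They were measured by RNA-Seq in organoids grown from small intestinal crypts of 3 C57BL/6 mice labelled as wild type. Organoids are cultured epithelial structures that hold stem cells and their differentiated progeny. The organoids of each mouse were treated with 50 μg/ml LDL, the lipoprotein that carries cholesterol to cells, or with PBS as the control, both for 5 days, which gave 3 LDL-treated and 3 PBS-treated libraries.

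Lysosomes are acidic organelles in which proteins, glycans and lipids are taken apart. LDL taken up by cells is delivered to them, and cholesterol is released there from its esters. Soluble hydrolases reach the lysosome mostly on mannose 6-phosphate receptors, membrane proteins such as LAMP1 and LAMP2 line and protect its limiting membrane, and the factors TFEB, TFE3 and MITF bind E-box sequences in the promoters of many lysosomal genes.

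The libraries held 22061545 to 31073360 reads on genes, and the LDL-treated library of mouse 1 stood apart in that 1 gene took 7.62% of its reads, against 2.60 to 3.32% for the top gene of the others. The animal identifier of mouse 3 is not of the form shared by those of mice 1 and 2 although all 3 mice are labelled as wild type, and results without mouse 3 are therefore given below. The epithelial gene Epcam was at 20049 to 24334 in every library. Of the leukocyte genes, Ptprc did not exceed 12.2, Adgre1 6.10, C1qa 4.07, C1qb 0.814 and Tyrobp 2.44, and Adgre1 was at 0 in all 3 PBS-treated libraries. Other genes of this list were higher, as 7 of the 12 had a mean of at least 10 and the highest mean was 143. The 12 leukocyte markers summed to 352 to 484 with LDL and 342 to 397 with PBS. In bulk samples of this kind, fewer cells of a type and less RNA per cell cannot be told apart.

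Promoter sequences are shown first, because the E-box core CACGTG, which is its own reverse complement and is the core of the site bound by TFEB, TFE3 and MITF, is a feature outside the expression values that 13 members shared. RefSeq promoter windows of 300 bases, from 250 before to 50 after a start site, were at hand for 38 of the 42 members and not for Ctsb, Ctse, Ctsh and Asah1. CACGTG was found in windows of 13 of these 38 genes, or 34.2%, and in windows of 8.09% of all 27025 genes in the RefSeq table. The longer form TCACGTG, counted on both strands and always containing the core, was found in 11 of the 38, or 28.9%, against 4.29% of all genes. Lamp1 held 4 copies of the core, and Ctsd, Ctsa, Gla and Mcoln1 held 2 each. Stretches of up to 250 bases before the RefSeq start site are printed 5′ to 3′ on the strand of the gene for Lamp1, which has the most copies, for Glb1 and Arsa, which have the core and fell with LDL in a fit, and for Scarb2 and Neu1, which rose and lack it in this window. Neither pairing held for all called members. Ctsd and Ctsl have the core and rose with the block described below, and Tfeb lacks it and fell. The letters are those of the RefSeq windows of GRCm38.p6, placed in GRCm39 by an exact and single match, and capitals mark CACGTG with a flanking T or A that completes TCACGTG or its reverse complement. Start sites differ between annotations, and exons of protein-coding GENCODE M39 transcripts cover the last 26 bases of the 250 for Arsa, 2 for Glb1, 40 for Lamp1 and 64 for Neu1. The printed stretches of Lamp1 and Neu1 stop after 30 of these bases, at 240 and 216 bases in all, so that 3 of the 4 copies of Lamp1 are shown. No protein-coding transcript reaches into the stretch of Scarb2, but all 250 bases lie in an exon of a transcript of Scarb2 that is not protein-coding and starts farther upstream.
Lamp1 chr8:13208911-13209150 plus strand: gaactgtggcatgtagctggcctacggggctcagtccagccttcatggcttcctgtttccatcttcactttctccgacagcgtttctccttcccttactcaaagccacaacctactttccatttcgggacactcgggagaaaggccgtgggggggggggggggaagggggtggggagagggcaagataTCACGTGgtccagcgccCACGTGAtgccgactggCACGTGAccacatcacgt
Glb1 chr9:114229896-114230145 plus strand: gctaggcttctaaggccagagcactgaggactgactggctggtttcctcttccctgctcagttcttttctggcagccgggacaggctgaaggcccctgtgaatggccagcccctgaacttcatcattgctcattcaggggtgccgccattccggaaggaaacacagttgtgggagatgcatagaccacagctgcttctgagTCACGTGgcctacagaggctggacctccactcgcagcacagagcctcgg
Arsa chr15:89361628-89361877 minus strand: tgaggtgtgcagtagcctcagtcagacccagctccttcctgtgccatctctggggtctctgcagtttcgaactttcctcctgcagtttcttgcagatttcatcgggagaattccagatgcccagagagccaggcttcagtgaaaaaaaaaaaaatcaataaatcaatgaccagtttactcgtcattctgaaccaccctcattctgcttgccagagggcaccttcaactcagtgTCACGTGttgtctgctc
Scarb2 chr5:92653517-92653766 minus strand: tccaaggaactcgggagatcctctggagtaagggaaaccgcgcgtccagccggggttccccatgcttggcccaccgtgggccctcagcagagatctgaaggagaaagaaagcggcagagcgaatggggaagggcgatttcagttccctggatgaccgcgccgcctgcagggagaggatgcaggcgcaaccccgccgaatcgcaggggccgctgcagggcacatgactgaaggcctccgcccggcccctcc
Neu1 chr17:35149979-35150194 plus strand: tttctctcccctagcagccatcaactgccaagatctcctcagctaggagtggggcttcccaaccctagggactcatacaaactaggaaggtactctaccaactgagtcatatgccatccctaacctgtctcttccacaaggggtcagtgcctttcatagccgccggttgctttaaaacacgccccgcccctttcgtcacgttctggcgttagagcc

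Of the 42 genes, 10 were called different between LDL- and PBS-treated organoids in at least 1 of the 2 fits. Scarb2 rose, Glb1 fell and Neu1 rose slightly less than 1.5-fold, and all 3 passed limma's test at an adjusted p under 0.05 with no term for the mouse. When the mouse was a block, so that each LDL-treated culture was set against the PBS-treated culture of its own animal, Ctse, Ctsl, Ctsh, Ctsd and Gusb also rose and Arsa and Tfeb also fell. The other 31 tested members were called in neither fit. Mitf, with a mean normalized count of 6.91, was under the minimum of 10 and was not tested, so 41 members entered the fit of 18459 genes.

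Taking calls as those with an adjusted p under 0.05 that also passed 1.5-fold, 1 member was higher and 1 was lower, against 0.878% of all genes tested higher and 0.395% lower. With the mouse as a block the same rule gave 4 members higher and 3 lower, against 5.68% and 3.46% of all genes. At any fold change the counts were 2 higher and 1 lower without the block, against 0.932% and 0.412% of all genes, and 7 higher and 3 lower with it, against 8.27% and 7.45%. All 3 LDL-treated libraries lay above all 3 PBS-treated ones for 9 members and below them for 6, against 11.9% and 12.3% of all genes. LDL was higher than PBS within all 3 mice for 13 members and lower for 14, against 24.2% and 26.8% of all genes. The median log2 fold change of the 41 was −0.03, beside −0.02 over all genes tested, with 18 members above 0 and 23 below. The summed normalized count of the 42 genes was 60493 ± 2405 (SD, n = 3) with LDL and 56179 ± 3405 with PBS, and the groups overlapped, with ranges of 57753 to 62253 and 52480 to 59183.

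**Figure D1:**
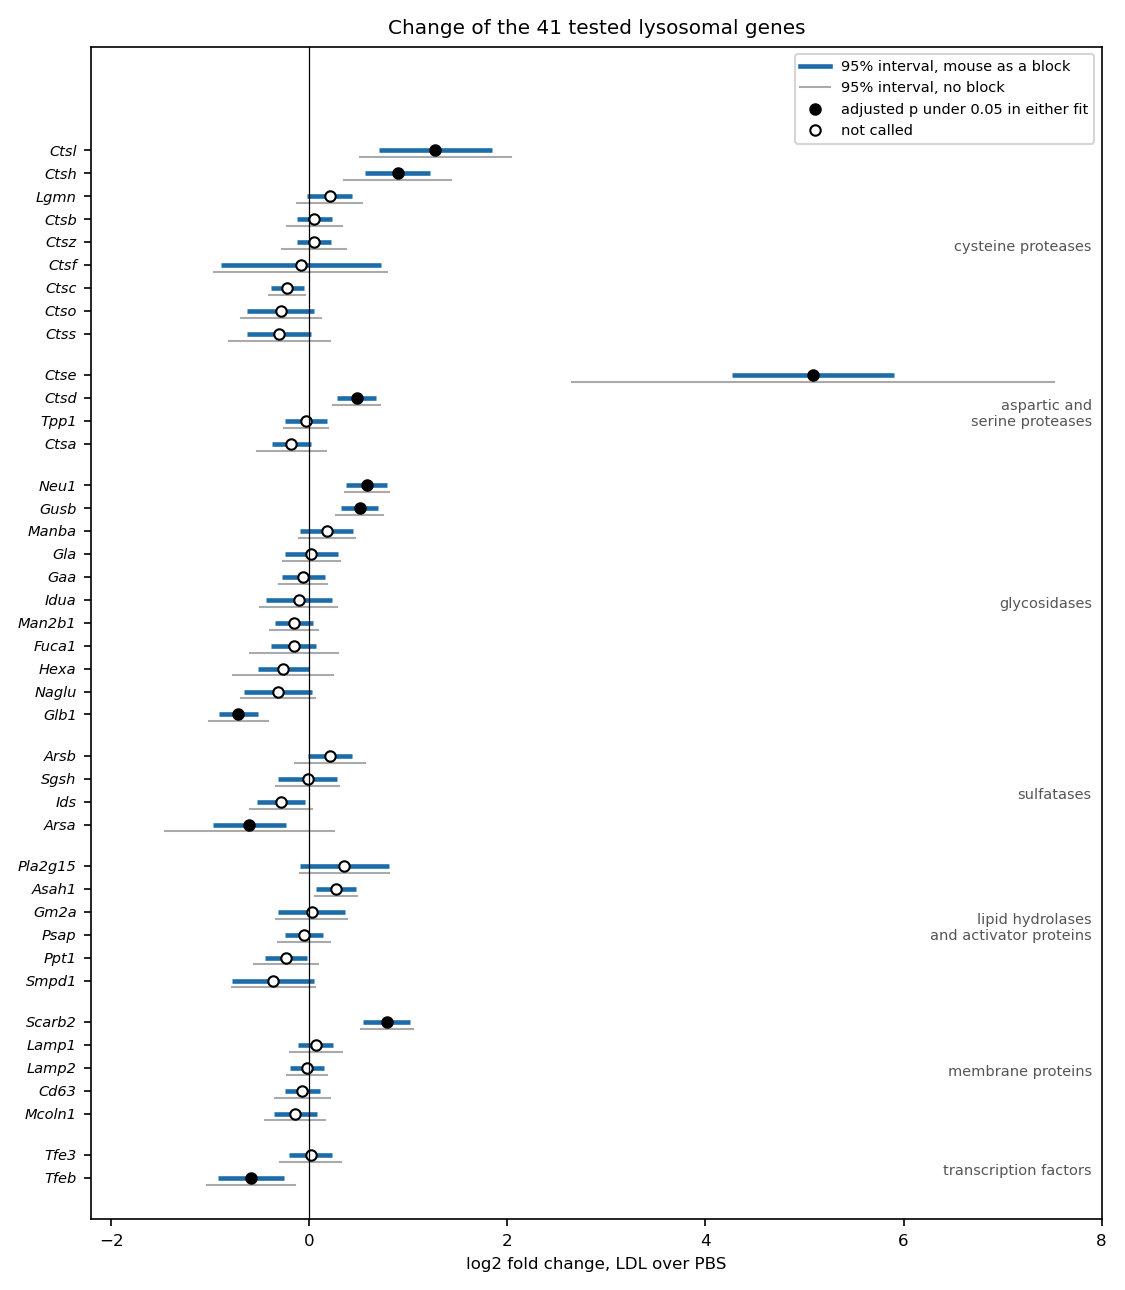
Log2 fold change of LDL over PBS on the horizontal axis for the 41 tested members, grouped by role. Points are estimates, filled where the adjusted p was under 0.05 in either fit, thick lines are 95% intervals with the mouse as a block and thin lines those without it. Ctse lies far to the right at 5.09, and the 31 open points lie between −0.36 and 0.36.

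Among the 5 membrane proteins, Scarb2 rose and the other 4 were not called. Scarb2 (chr5:92589169-92654692, minus strand, GRCm39) encodes LIMP-2, an abundant protein of the lysosomal membrane. Its normalized counts in mice 1, 2 and 3 were 2246, 2407 and 2215 with PBS and 4491, 3416 and 3979 with LDL. Each LDL-treated library was above each PBS-treated one, and the culture of mouse 2 was the lowest of the LDL-treated 3. The means were 2289 ± 103 (SD, n = 3) with PBS and 3962 ± 538 with LDL, and the rise was 2.00, 1.42 and 1.80-fold within the 3 mice. The log2 fold change was 0.78 (SE 0.11, limma adjusted p = 0.0241), and the adjusted p was 0.00291 with the mouse as a block.

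Lamp1 (chr8:13209121-13227360, plus strand) encodes one of the most abundant glycoproteins of the lysosomal membrane. It had counts of 6728, 8210.1 and 7686 with PBS and 7114, 8310.1 and 8237 with LDL. These groups overlapped, with a log2 fold change of 0.07 (SE 0.11, limma adjusted p = 0.800) and a 95% interval of −0.11 to 0.24 with the block. Exons of Lamp1 share 2564 bases, 49.2% of their length, with Grtp1 on the opposite strand, and reads of the pair cannot be told apart if counting ignored strand, a setting not given in the sources used here. Lamp2, the tetraspanin gene Cd63 and Mcoln1, which encodes the calcium channel mucolipin 1, had log2 fold changes of −0.02, −0.07 and −0.14.

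Among the 11 glycosidases, Neu1 rose and Glb1 fell without the block, and Gusb also rose with it. Neu1 (chr17:35150165-35156292, plus strand), the lysosomal sialidase, had counts of 901, 1000.3 and 1019 with PBS and 1529, 1351 and 1486 with LDL. Every LDL-treated library was above every PBS-treated one. The means were 974 ± 63.3 (SD, n = 3) and 1456 ± 92.8, and the log2 fold change was 0.58 (SE 0.10, limma adjusted p = 0.0354, 0.00536 with the mouse as a block). Glb1 (chr9:114230144-114303966, plus strand), the lysosomal β-galactosidase, had counts of 1185, 1359 and 1289.6 with PBS and 689, 925 and 736 with LDL. The order was the opposite of that of Neu1, with each LDL-treated library below each PBS-treated one and mouse 2 the highest in both treatments. The means were 1278 ± 87.7 (SD, n = 3) with PBS and 783 ± 125 with LDL, the ratios of LDL to PBS were 0.581, 0.680 and 0.571 within the mice, and the log2 fold change was −0.72 (SE 0.13, limma adjusted p = 0.0469, 0.00217 with the block).

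NEU1 and β-galactosidase are held in 1 complex with cathepsin A, the protective protein encoded by Ctsa. Ctsa had counts of 2162, 2572 and 2399 with PBS and 1698, 2552 and 2119.7 with LDL. It was lower with LDL in each of the 3 mice but the groups overlapped, with a log2 fold change of −0.18 (limma adjusted p = 0.572, 0.209 with the block). The 3 genes of the complex thus had values in different directions in the same libraries, and the differences among them were not tested. Gusb (chr5:130017852-130031903, minus strand), β-glucuronidase, had counts of 1021, 980.4 and 1185 with PBS and 1534, 1435 and 1558 with LDL. The groups did not overlap, with means of 1062 ± 109 (SD, n = 3) and 1509 ± 65.2 and a log2 fold change of 0.51 (SE 0.10, limma adjusted p = 0.0589, 0.00581 with the block). Exons of Gusb share 640 bases with Vkorc1l1, and those of Neu1 share 431 with 1110038B12Rik, both on the opposite strand. Those of Glb1 share 194 bases with Tmppe on the same strand. The other 8 glycosidases, among them the α-galactosidase Gla, the acid α-glucosidase Gaa and the hexosaminidase subunit Hexa, had log2 fold changes of −0.31 to 0.18 and were called in neither fit.

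**Figure D2:**
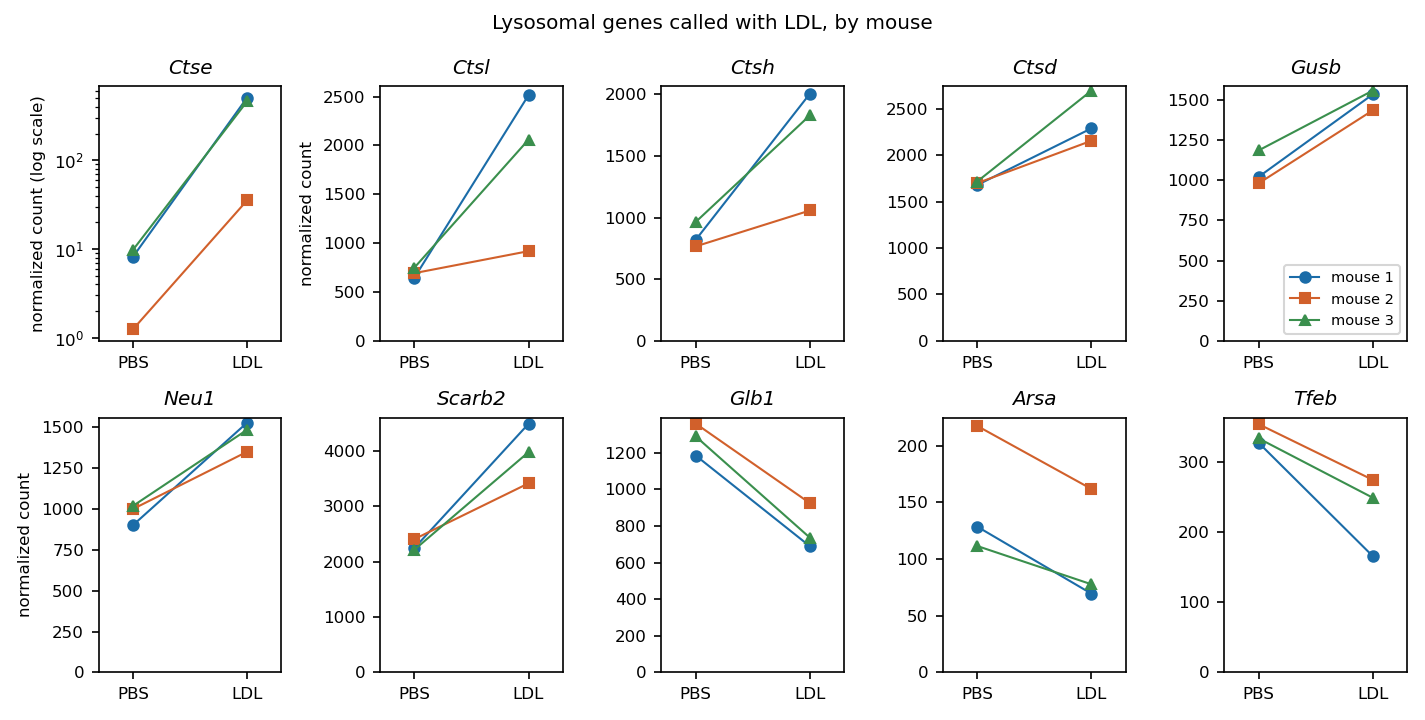
Normalized counts of the 10 members called in either fit, with PBS on the left and LDL on the right of each panel and a line for each of the 3 mice. The vertical axis starts at 0 except for Ctse, where it is a log scale. The lines of mouse 2 are the flattest for Ctsl, Ctsh and Scarb2, and those of Glb1, Arsa and Tfeb slope down in all 3 mice.

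Among the 4 aspartic and serine proteases, Ctse and Ctsd rose with the mouse as a block and Ctsa and Tpp1 were not called. Ctse (chr1:131566009-131603243, plus strand), cathepsin E, is an aspartic protease of endosomes best known from the surface epithelium of the stomach and from immune cells. Its normalized counts in mice 1, 2 and 3 were 8.17, 1.24 and 9.77 with PBS and 511, 35.5 and 464 with LDL. The gene was close to undetected in PBS-treated organoids, and with LDL it was high in mice 1 and 3 and low in mouse 2. The PBS values rest on 8, 1 and 12 reads and the LDL values on 419, 39 and 555. The ratio of LDL to PBS was 62.6 in mouse 1 (exact 95% interval 31.5 to 146), 28.5 in mouse 2 (4.83 to 1156) and 47.5 in mouse 3 (27.0 to 92.5), intervals that cover counting error only. The means were 6.39 ± 4.53 (SD, n = 3) with PBS and 337 ± 262 with LDL. On the log2(count + 1) scale, which understates the change of a gene with so few reads, the fold change was 5.09 (SE 1.05, limma adjusted p = 0.0637), and with the mouse as a block the SE was 0.353 and the adjusted p 0.000177. With 1 library left out and no block, the log2 fold change was 4.37 to 6.33.

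With LDL, mouse 2 was also low for 3 markers of fetal-like epithelium. With the highest library set to 100%, the LDL-treated library of mouse 2 held 6.94% for Ctse, 9.00% for Clu, 15.1% for Ly6a and 8.80% for Anxa1, and that of mouse 3 held 90.8%, 68.6%, 100% and 65.6%. Mouse 2 with LDL also held 36.5% for Ctsl and 52.7% for Ctsh. Over all genes tested, 16.5% were lowest in mouse 2 in both treatments and 19.6% were highest. Ctsl was lowest in mouse 2 with LDL only, a share that was not counted over all genes. The 3 fetal-like markers rose with the block in limma's test and summed to 1199 to 13046 with LDL and to 60.9 to 519.6 with PBS. Of the 5 enterocyte markers, Alpi and Fabp1 rose without the block, Apoa4 also rose with it, and Apoa1 and Sis were called in neither fit, at log2 fold changes of 0.04 and −0.20. The 5 markers together summed to 42202 to 101969 with LDL and 16379.8 to 37814 with PBS, highest in mouse 2 in both treatments. The part of these cell states in the members' differences was not tested. Cd14, 1 of the 12 leukocyte markers, rose with the block (log2 fold change 1.18, limma adjusted p = 0.00484). In the LDL-treated libraries of mice 1 and 3, in which Ctse was high, Ptprc was at 12.2 and 8.36 and Adgre1 at 6.10 and 2.51, and C1qb was at 0 in both. The 12 leukocyte markers together summed to 484 and 469 in these libraries and to 352 in the LDL-treated library of mouse 2. This was the order of Ctse, and the part of leukocytes in its values was not tested.

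Ctsd (chr7:141929646-141941775, minus strand), cathepsin D, the main aspartic protease of lysosomes, had counts of 1677, 1697 and 1715 with PBS and 2287, 2153 and 2692 with LDL. The 3 PBS-treated libraries lay close together and all LDL-treated ones were above them. The means were 1696 ± 18.7 (SD, n = 3) and 2378 ± 281, and the log2 fold change was 0.48 (SE 0.10, limma adjusted p = 0.0680, 0.00900 with the block). Per kilobase of exon, cathepsin D stayed far more abundant than cathepsin E, with mean levels of 736 and 51.2 normalized counts per kilobase over the 6 libraries. Tpp1, the tripeptidyl peptidase, had a log2 fold change of −0.03.

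Among the 9 cysteine proteases, Ctsl and Ctsh rose with the mouse as a block and the other 7 were not called. Ctsl (chr13:64507151-64518704, minus strand), the endopeptidase cathepsin L, had counts of 646, 693 and 749 with PBS and 2515, 918 and 2059 with LDL. The groups did not overlap, and mouse 2 again gave the lowest LDL-treated value. The means were 696 ± 51.5 (SD, n = 3) and 1831 ± 822, with ratios of 3.89, 1.32 and 2.75 in the 3 mice and a log2 fold change of 1.27 (SE 0.33, limma adjusted p = 0.102, 0.0125 with the block). Ctsh (chr9:89936205-89958148, plus strand), the aminopeptidase cathepsin H, had counts of 819.7, 767 and 965 with PBS and 2005, 1058 and 1829.5 with LDL. It followed the order of Ctsl with LDL, highest in mouse 1 and lowest in mouse 2. The means were 850.4 ± 103 (SD, n = 3) and 1631 ± 504, and the log2 fold change was 0.89 (SE 0.23, limma adjusted p = 0.102, 0.00627 with the block).

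The most abundant cysteine proteases were called in neither fit. Ctsb (chr14:63358384-63383372, plus strand), cathepsin B, had counts of 6476, 7825 and 6946 with PBS and 6631, 8296 and 7107 with LDL. Ctsz (chr2:174267304-174280832, minus strand), cathepsin Z, had 3252, 4045 and 3527 with PBS and 3176, 4375 and 3680.0 with LDL. For both, mouse 2 was highest in each treatment and the groups overlapped, with log2 fold changes of 0.05 (SE 0.12, limma adjusted p = 0.860) and 0.05 (SE 0.14, adjusted p = 0.890). With the block the adjusted p was 0.707 for Ctsb and 0.725 for Ctsz, and their 95% intervals were −0.12 to 0.23 and −0.13 to 0.22. Exons of Ctsb share 1184 bases, 15.4% of their length, with Fdft1, and those of Ctsz share 1084, 29.2%, with Nelfcd. Both overlaps are on the opposite strand. Ctsc, which activates serine proteases of granules, was lower in all 3 mice, at 2061, 2063 and 1977 with PBS and 1750.2, 1751 and 1723 with LDL. Its groups did not overlap, but the log2 fold change of −0.22 did not pass the test (limma adjusted p = 0.169, 0.0756 with the block). Ctss, a cathepsin of antigen-presenting cells, Ctso, Ctsf and the asparaginyl endopeptidase Lgmn had log2 fold changes of −0.30, −0.29, −0.08 and 0.21.

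Of the 4 sulfatases, Arsa fell with the mouse as a block. Arsa (chr15:89355820-89361653, minus strand), arylsulfatase A, removes sulfate from sulfatides. Its counts were 129, 217 and 112 with PBS and 69.5, 162 and 77.8 with LDL. LDL was below PBS in each mouse, but mouse 2 with LDL was above mice 1 and 3 with PBS, so the groups overlapped. The means were 153 ± 56.9 (SD, n = 3) and 103 ± 51.1, and the log2 fold change was −0.61 (SE 0.37, limma adjusted p = 0.416, 0.0391 with the block). With the block, DESeq2 on the recovered reads gave an adjusted p of 0.109 for Arsa and edgeR gave 0.0424. Exons of Arsa share 1182 bases with the antisense RNA C230037L18Rik, whose mean normalized count was 1.23. Ids, the iduronate sulfatase, was lower in all 3 mice without overlap at a log2 fold change of −0.29 (limma adjusted p = 0.290, 0.108 with the block), and Arsb and Sgsh were at 0.21 and −0.02.

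None of the 6 lipid hydrolases and activator proteins passed limma's test in either fit, nor DESeq2 or edgeR on the recovered reads, and 1 of them, Asah1, had an unadjusted p under 0.05 without the block. Asah1, acid ceramidase, had counts of 1587, 1746 and 1636 with PBS and 2026, 1836 and 2139 with LDL. Its groups did not overlap, with a log2 fold change of 0.27 (limma adjusted p = 0.168, 0.0775 with the block). Smpd1, acid sphingomyelinase, was at 115, 88.2 and 107 with PBS and 76.8, 87.3 and 75.3 with LDL, lower without overlap, with a log2 fold change of −0.36 and 95% limits of −0.78 to 0.05 with the block. Psap (chr10:60113431-60138380, plus strand), the precursor of the saposins that present sphingolipids to their hydrolases, had counts of 3747, 4127 and 4182 with PBS and 3429.7, 4428 and 3819.6 with LDL. These groups overlapped, with a log2 fold change of −0.05 (SE 0.11, limma adjusted p = 0.846, 0.718 with the block). Pla2g15, a phospholipase, the GM2 activator Gm2a and the thioesterase Ppt1 had log2 fold changes of 0.36, 0.02 and −0.23.

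Of the transcription factors, Tfeb fell with the mouse as a block and Tfe3 was not called. Tfeb (chr17:48047837-48103348, plus strand) had counts of 328, 354 and 334 with PBS and 166, 275 and 249 with LDL. Every LDL-treated library was below every PBS-treated one, and that of mouse 1 was the lowest. The means were 339 ± 13.9 (SD, n = 3) and 229.9 ± 56.9, with a log2 fold change of −0.59 (SE 0.19, limma adjusted p = 0.154, 0.0312 with the block). Tfe3 (chrX:7628761-7641444, plus strand) had counts of 607, 609 and 759.6 with PBS and 579, 691 and 723 with LDL. Its groups overlapped, with a log2 fold change of 0.01 (SE 0.13, limma adjusted p = 0.969, 0.940 with the block) and a 95% interval of −0.20 to 0.23 with the block. Mitf was near the limit of detection, at 9.19, 4.97 and 7.33 with PBS and 6.10, 6.37 and 7.53 with LDL. TFEB and TFE3 are regulated to a large part by phosphorylation and entry into the nucleus, which transcript counts do not measure.

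Members with and without the E-box core had about the same median change. Of the 13 with CACGTG, Ctsd and Ctsl rose and Glb1 and Arsa fell with the block, and the median log2 fold change was −0.06. Of the 24 tested members whose windows lack it, Scarb2, Neu1 and Gusb rose and Tfeb fell, and the median was also −0.06. Lamp1, with 4 copies, had a log2 fold change of 0.07. A match of these letters is a description and does not show that a factor binds there.

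**Figure D3:**
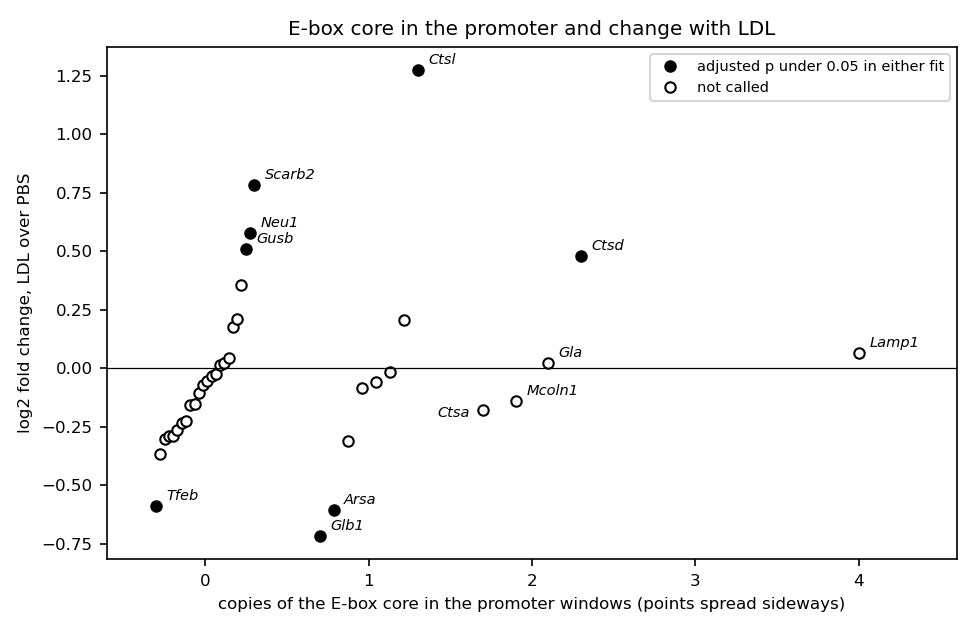
Log2 fold change of LDL over PBS on the vertical axis against the number of CACGTG copies in the promoter windows for the 37 tested members with a RefSeq window. Points are spread sideways around each whole number only to keep them apart, and filled points had an adjusted p under 0.05 in either fit. Called members are found both at 0 copies and at 1 or 2 copies, on both sides of the zero line.

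Levels of the 42 genes, compared per kilobase of merged exons, spanned from 1479.8 normalized counts per kilobase for Lamp1 to 0.681 for Mitf. Lamp1, Psap, Ctsz, Ctsb and Ctsd together made 50.4% of the summed level per kilobase. Of these 5, Ctsd alone was called in a fit. Lamp1 at 1479.8, Psap at 1238, Ctsz at 991 and Ctsb at 940.0 each overlapped with the next gene in this order, with Ctsd at 736 after Ctsb, when the 6 libraries were pooled. Within a library, Lamp1 was above Psap and Psap above Ctsz in 6 of 6 libraries, and Ctsz was above Ctsb and Ctsb above Ctsd in 5 of 6. Scarb2 followed at 453, though it was above Ctsa, the next in order, in only 2 of 6 libraries. Of the top 5, exons of Ctsd share 808 bases, 29.2% of their length, with Gm49369 on the same strand, whose mean count was 0.0. Those of Ctsz, Ctsb and Lamp1 share bases with genes on the opposite strand, as given above. How reads of shared bases were counted is not given in the sources used here, and their part in these levels was not tested. Ctse stood at 1.91 per kilobase in PBS-treated organoids, among the lowest with Ctsf and Mitf, and at 101 in LDL-treated organoids. The latter mean, close to that of Gaa, was carried by mice 1 and 3. Their normalized counts with LDL were 511 and 464, against 35.5 in mouse 2.

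**Figure D4:**
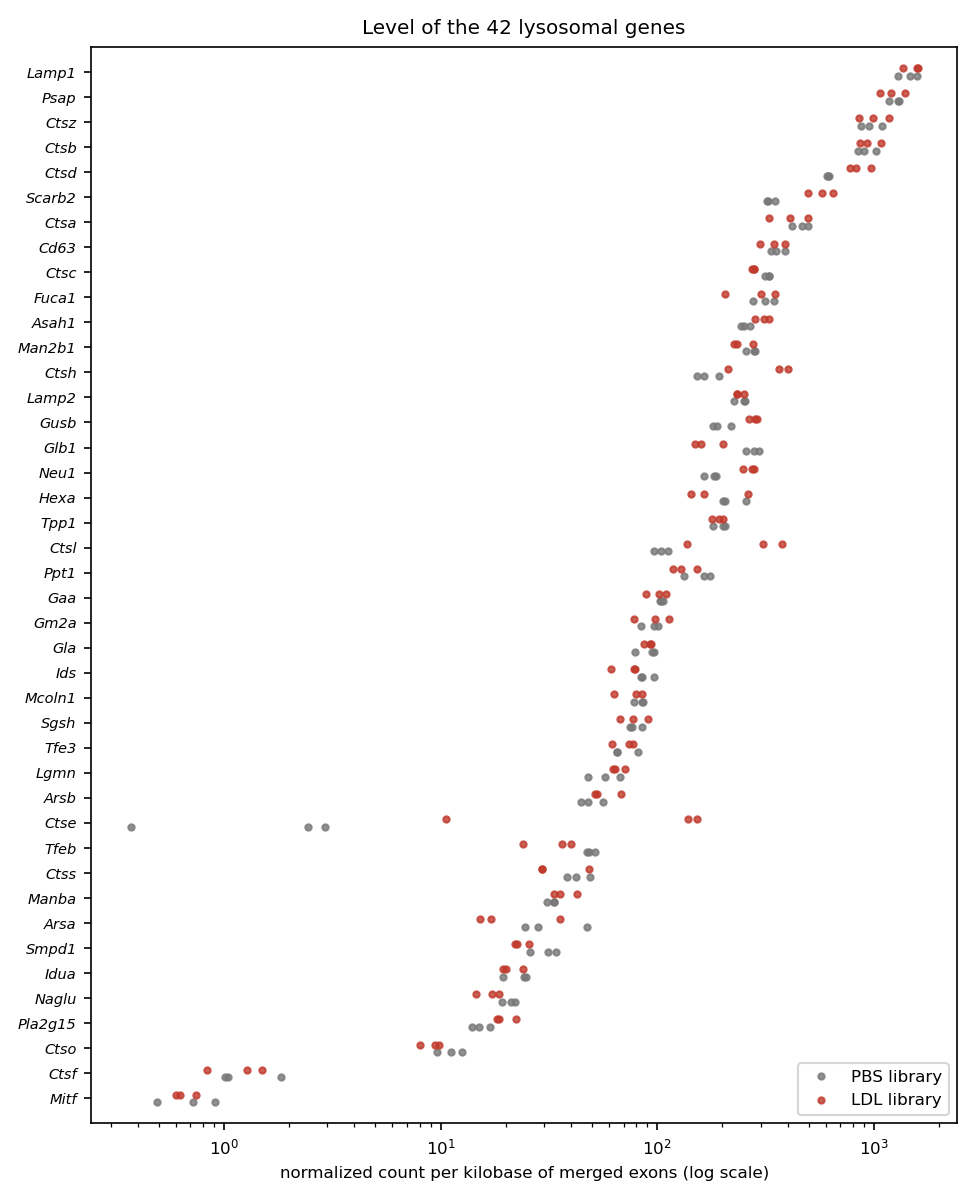
Normalized count per kilobase of merged exons, on a log scale, for the 42 members ordered by their mean over the 6 libraries. Grey points are PBS-treated and red points LDL-treated libraries. The points of most genes overlap between treatments, while those of Ctse do not, with means of 1.91 with PBS and 101 with LDL.

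The mice differed from each other in many members irrespective of treatment. The cultures of mouse 2 were the highest of their treatment with both PBS and LDL for 14 members, among them Ctsb, Ctsz, Ctsa, Hexa, Fuca1, Glb1, Arsa, Lamp1, Lamp2 and Tfeb, against 19.6% of all genes tested. They were the lowest in both for 4 members, Ctse, Ctsh, Ctsf and Gusb, against 16.5% of all genes. The median log2 ratio of LDL to PBS over the members was −0.11 in mouse 1, 0.02 in mouse 2 and −0.02 in mouse 3. For the 31 members that were not called, the adjusted p with the block ranged from 0.0756 to 0.949, and for 25 of them the 95% interval with the block stayed within a 1.5-fold change in either direction. For the other 6 the intervals reached past 1.5-fold, so a change of that size could not be told from none.

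The calls depended on single libraries and on mouse 3. Without the block, none of the 10 called members passed limma's test when LDL-treated library 3, or any 1 of the 3 PBS-treated libraries, was left out, and 7 to 8 members were then higher and 1 to 3 lower at an unadjusted p under 0.05. In these fits the log2 fold changes were 0.76 to 0.82 for Scarb2, −0.77 to −0.67 for Glb1 and 0.53 to 0.61 for Neu1. Without LDL-treated library 1, Scarb2 had a limma adjusted p of 0.0390 and Neu1 and Glb1 had 0.0790 and 0.0921. Without LDL-treated library 2, 5 members were higher and 2 lower by more than 1.5-fold. With the block and without mouse 3, which leaves 2 mice, Ctse was the one member called (log2 fold change 4.91, limma adjusted p = 0.00831), and the adjusted p of the other 9 lay between 0.0625 and 0.209. All 10 members had the same direction in each of these fits.

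Of 121 other genes of lysosomes and autophagy in 7 lists, 109 were tested, and 1 rose and 0 fell by more than 1.5-fold without the block in limma's test, against 0.878% and 0.395% of all genes, with 23 at an unadjusted p under 0.05. Without the block, DESeq2 on the recovered reads called 7 rises over 1.5-fold, of Lipa, Atp6v0a1, Atg9b, Gabarapl1, Map1lc3a, Sqstm1 and Cst6, and 1 fall, of Plbd1, while edgeR called 1 rise, of Lipa, and 0 falls. With the block in limma 6 rose and 2 fell, against 5.68% and 3.46%. Lipa, the acid lipase that frees cholesterol from the esters of LDL, was the gene called without the block in limma. Its counts were 245, 313 and 281 with PBS and 892, 883 and 973 with LDL. The 3 LDL-treated values lay close together and far above those with PBS, with a log2 fold change of 1.71 (SE 0.12, limma adjusted p = 0.00137). Plbd1, which encodes a phospholipase B-like protein, had counts of 666, 816 and 600.0 with PBS and 259, 538 and 375 with LDL. It was lower in each mouse and without overlap, and fell with the block at a log2 fold change of −0.88 (limma adjusted p = 0.122, 0.00819 with the block).

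Of 18 tested V-ATPase subunits, which acidify the lysosome, 1 rose by more than 1.5-fold with the block, Atp6v0a1, beside 5.68% of all genes tested, with a log2 fold change of 0.64 (limma adjusted p = 0.140, 0.0408 with the block). None of the 10 sorting receptors and their retromer and GGA partners passed limma's test in either fit, or DESeq2 or edgeR, and 0 had an unadjusted p under 0.05 in limma without the block. Of 22 tested membrane transporters and structural proteins, 2 fell by less than 1.5-fold with the block in limma, beside 7.45% of all genes lower at any fold change, and 0 were called past 1.5-fold in limma, DESeq2 or edgeR, with 3 at an unadjusted p under 0.05 in limma without the block. Among the genes of Ragulator, the Rag GTPases and folliculin, which control TFEB, Rragd, a Rag GTPase, had counts of 1968, 3042 and 1991 with PBS and 633, 2006 and 795 with LDL. It fell with the block, by most in mice 1 and 3, with a log2 fold change of −1.19 (limma adjusted p = 0.159, 0.00434 with the block), and 4 of the 13 tested genes of this set fell at any fold change, beside 7.45% of all genes. DESeq2 and edgeR with the block called 2 and 3 of the 13 lower, and without the block limma, DESeq2 and edgeR called 0, with 2 at an unadjusted p under 0.05 in limma.

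Of 19 autophagy genes, 3 rose by more than 1.5-fold with the block, beside 5.68% of all genes tested. Atg9b had counts of 449, 144 and 490.1 with PBS and 2261, 850.3 and 2507 with LDL, with a log2 fold change of 2.41 (limma adjusted p = 0.0779, 1.22e-05 with the block). It was lowest in mouse 2 in both treatments and did not overlap between treatments. Map1lc3a, an LC3 gene, and Sqstm1, the autophagy receptor p62, had log2 fold changes of 1.08 (adjusted p = 0.113, 0.0140 with the block) and 0.59 (0.101, 0.0170 with the block). Of 4 tested cathepsin inhibitors, Cst6, which inhibits cathepsin L among others, rose with the block, from 58.2, 72.1 and 49.7 with PBS to 105, 204 and 148 with LDL. All LDL-treated libraries were above the PBS-treated ones, at a log2 fold change of 1.29 (limma adjusted p = 0.0656, 0.00490 with the block).

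**Figure D5:**
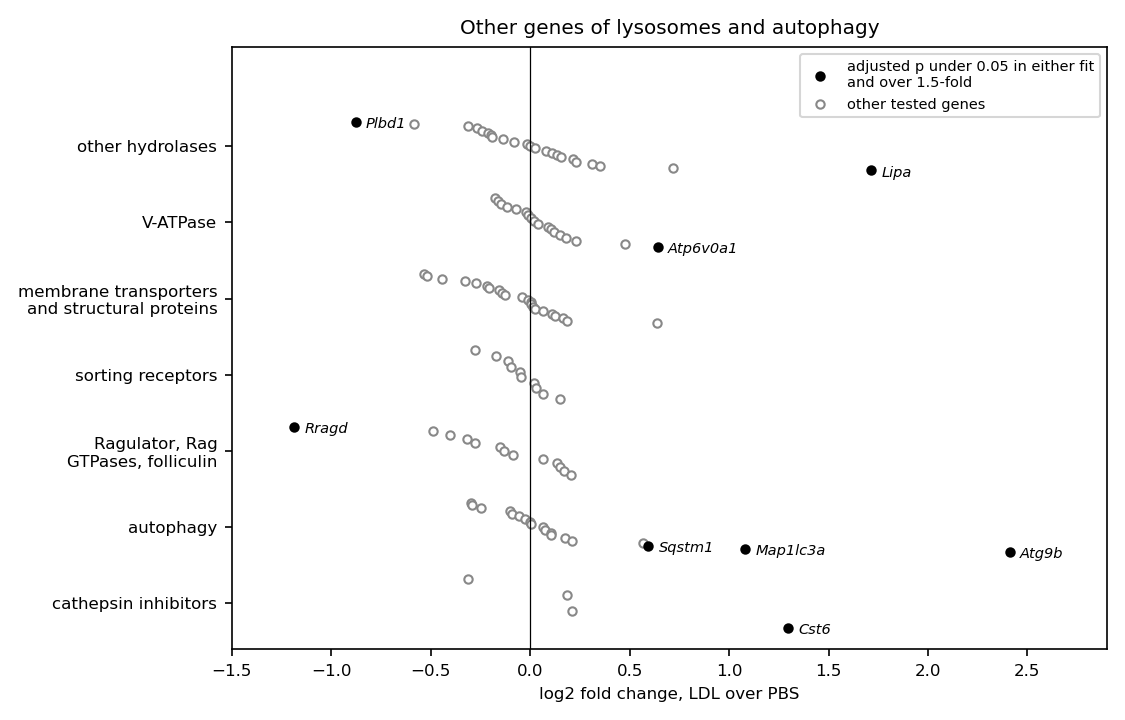
Log2 fold change of LDL over PBS on the horizontal axis for the 109 tested genes of 7 other lists, 1 row per list. Filled points had an adjusted p under 0.05 in either fit and a change of more than 1.5-fold. Lipa, Atg9b, Cst6 and Map1lc3a stand to the right and Rragd and Plbd1 to the left, while all 10 sorting receptors lie near 0.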

How the data were processed

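RNA-Seq was performed by the authors on small intestinal organoids of 3 mice with LDL or PBS, after removal of ribosomal RNA, with stranded libraries. Reads were aligned to GRCm39 with STAR and counted with featureCounts, and the strand setting is not given in the sources used here. Signal values were deposited by the authors as counts normalized by 1 size factor per library, from which whole reads were recovered for 100.0% of them within 0.01 of a whole number. The depth was 22061545 to 31073360 reads per library.

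Groups and mice came from the labels, in which both libraries of a number share an animal identifier. After group means were removed, libraries of the same mouse correlated over genes with r = 0.484, 0.421 and 0.462. Log2(normalized count + 1) of 18459 genes, those averaging at least 10, was compared with limma 3.58.1 in R 4.3.3 (eBayes with trend, two-sided, Benjamini-Hochberg over all these genes), without and with the mouse as a block. A call needed an adjusted p-value under 0.05 and, where stated, over 1.5-fold change. DESeq2 1.42.0 and edgeR 4.0.16 on the recovered reads, other scalings, filters and pseudocounts, and fits with libraries left out were alternatives. The fits were also run on simulated reads, and the outcome is not given here. The paper names DESeq2 for its own test and does not give the terms of its design.

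Positions and exon lengths came from GENCODE M39 for GRCm39, in which 54749 identifiers were found and 667 were not, and promoters came from RefSeq. Python 3.11.15 (pandas 2.3.3, matplotlib 3.10.9) was used for tables and plots. The members, the other lists and the markers were chosen with earlier results of these data known. Full values were given for members called in either fit, the 3 transcription factors and the 4 members with the highest level per kilobase. Ctsa, Ctsc, Asah1 and Smpd1 were also given by library, chosen after their values were seen, and genes of other lists were named where called over 1.5-fold in either fit. A few further genes of the lists were left out and are not reported.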

Additional observations from a re-analysis of the deposited data

How the results depend on the processing

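The pseudocounts of 0.5 and 5, a minimum mean of 50 and upper-quartile scaling left all counts of calls within 1.5 times those reported, and so did the change to any fold for all genes. Without a filter, 4 members and 506 genes were higher and 245 genes lower. With quantile normalization 2 members were higher. With the replicate block the counts over 1.5-fold were 4 members higher and 3 lower and 1048 genes higher and 639 lower, and at any fold change 7 and 3 members and 1526 and 1375 genes. At any fold change without the block 2 members were higher. At an unadjusted p under 0.05 and over 1.5-fold, 4 members were higher and 2 lower, with 1170 and 776 genes.

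DESeq2 on the recovered reads gave 5 members higher, with 846 genes higher and 348 lower without the block and 981 and 511 with it. edgeR gave 2 members higher without the block and 5 with it, when 1171 genes were higher and 588 lower. The count tools with the block did not call Arsa and Tfeb over 1.5-fold. The log2 fold change of Tfeb was −0.56 in DESeq2 (adjusted p = 0.0270) and −0.55 in edgeR (adjusted p = 0.0341). That of Arsa was −0.58 in DESeq2 (adjusted p = 0.109) and −0.57 in edgeR (adjusted p = 0.0424).

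Leaving out 1 library at a time gave 0 to 5 members higher and 0 to 2 lower, 18 to 1179 genes higher and 2 to 1133 lower, and a median log2 fold change of the members of −0.072 to 0.033. The lowest count of genes followed from leaving out LDL-treated library 3 and the highest from leaving out LDL-treated library 2. Without both libraries of mouse 3, limma called 0 members and 0 genes in either direction, with 6 members higher and 1 lower and 768 and 511 genes at an unadjusted p under 0.05. The fits with the block and 1 mouse left out were chosen after seeing the data. Without mouse 1 they gave 4 members higher, 758 genes higher and 327 lower. Without mouse 2 they gave 5 and 3 members and 1604 and 1348 genes, and without mouse 3, 0 members lower and 322 and 115 genes. The cause of these differences was not tested.

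Of 23 named genes, 18 kept their direction under all 21 settings. The other 5 had changes near 0. With 1 library left out, the log2 fold change was −0.041 to 0.12 for Ctsb, −0.072 to 0.16 for Ctsz, −0.15 to 0.035 for Psap, −0.014 to 0.14 for Lamp1 and −0.050 to 0.12 for Tfe3. That of Tfe3 was also −0.012 with upper-quartile scaling and −0.069 with the block and without mouse 2. Depth limits Ctse, Ctsf and Mitf, whose lowest values rest on few reads. An exact permutation test of 1 gene over 3 against 3 unpaired libraries could not give a two-sided p below 0.1. One that keeps the pairing within the 3 mice has a higher limit.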

Other observations

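Markers of the epithelial cell types were counted in the same libraries as the lysosomal genes. The 5 goblet markers summed to 11447 to 18986 with LDL and 19224 to 23424 with PBS, without overlap, and 1 of them was higher and 2 were lower in limma's test without the block. The 4 stem cell markers summed to 6947 to 13435 with LDL and 13169 to 25498 with PBS, and the 4 Paneth cell markers to 8274 to 9449 and 9058 to 14819. Both lists overlapped between treatments, and single markers went in both directions. With the block in limma's test, 1 stem cell marker rose and 2 fell by more than 1.5-fold, and 1 Paneth cell marker rose and 1 fell. These stand beside 5.68% of all genes higher and 3.46% lower, and without the block limma called 0 of them. DESeq2 with the block called 1 of the stem cell markers, Ascl2, which was higher. The 3 enteroendocrine markers summed to 6085 to 9292 with LDL and 7770.2 to 12496 with PBS, and the 3 tuft cell markers to 119 to 189 and 154 to 213. The 6 epithelial keratin and adhesion markers summed to 93419 to 126288 with LDL and 82825 to 86229 with PBS. The 6 stromal markers summed to 71.8 to 116 with LDL and 109 to 152 with PBS, and the 3 endothelial markers to at most 25.6 and at most 22.5. The part of these markers in the values of the lysosomal genes was not tested.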
